A study of Homo sapiens with 22 samples.

Results

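Reprogramming of human fibroblasts to pluripotency was driven here by transfected mRNAs, and the 6 genes that code for the transfected factors were followed: POU5F1, SOX2, NANOG, LIN28A, KLF4 and MYC. They were found by symbol among the 33694 genes counted, each symbol matched 1 gene, and all 6 passed the filter on low values that kept 12794 genes for testing (a UMI in at least 5% of the cells kept). BJ cells, an established line of human foreskin fibroblasts, were cultured in microfluidic chambers at 5% O2. D0 cells were the control and received no transfection. All later cells received mRNA transfections in the nights of day 1 to day 8, as far as their harvest day allowed, in Pluriton medium, and StemMACS iPSBrew XF medium from day 9, and were harvested on D3, D5, D7, D9, D11, D13 and D15. Each day has 2 pools, A and B, of cells from 4 chips, which are the replicates (n = 2 per day, 16 pools). They come from 1 line with no untransfected culture at the later days, so time in culture, medium and transfection cannot be told apart in a comparison with D0. A droplet library counts unique molecular identifiers (UMIs), 1 per captured RNA molecule, near the 3′ end of transcripts. A UMI of a member can stem from transfected RNA or from the cell's own gene, and these cannot be told apart in the counts. All levels are UMIs per 1000000 UMIs of the pool (CPM).

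POU5F1 (also called OCT4) is a POU-domain transcription factor that, with its DNA-binding partner SOX2 and the homeodomain factor NANOG, forms the core circuit of pluripotent cells, in which each factor binds regulatory DNA of its own gene and of the others. LIN28A is an RNA-binding protein that blocks maturation of let-7 microRNAs. KLF4, a zinc-finger factor, and MYC, a driver of ribosome production and growth, are expressed by fibroblasts too, whereas the other 4 are all but silent in them.

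The promoters of NANOG and SOX2 are shown because they hold the octamer core that POU5F1 is known to bind (TTTGCAT, reverse complement ATGCAAA). Of the 6 members, entries in the promoter table of RefSeq were used for SOX2, KLF4 and NANOG. No entry was used for POU5F1 and LIN28A, and MYC was left out by rule, so their promoters were not searched for the motifs. The 250 bases before the start annotated in RefSeq are shown 5′ to 3′ on the strand of the gene, with matches in capitals. They come from chr12:7789152-7789401 for NANOG and chr3:181711675-181711924 for SOX2 (GRCh38.p14). For NANOG and KLF4 this start lies inside the span of the gene in gencode given below, and motif positions refer to the RefSeq start.
NANOG promoter: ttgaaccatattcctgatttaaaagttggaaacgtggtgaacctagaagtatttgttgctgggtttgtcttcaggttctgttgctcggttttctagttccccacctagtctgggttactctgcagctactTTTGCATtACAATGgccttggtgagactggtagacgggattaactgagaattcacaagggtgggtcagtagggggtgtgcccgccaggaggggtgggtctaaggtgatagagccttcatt
SOX2 promoter: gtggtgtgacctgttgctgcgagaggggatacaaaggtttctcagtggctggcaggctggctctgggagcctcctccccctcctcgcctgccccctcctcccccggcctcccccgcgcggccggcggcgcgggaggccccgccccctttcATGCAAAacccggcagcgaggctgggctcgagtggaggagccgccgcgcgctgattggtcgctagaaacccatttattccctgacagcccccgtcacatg
In the NANOG promoter the octamer core began 120 bases before the start and was followed after 1 base by a SOX element (ACAATG, reverse complement CATTGT) 112 bases before it. In the SOX2 promoter the reverse complement of the octamer core began 100 bases before the start, and no SOX element was found. The KLF4 promoter held neither motif in this window. Over both strands, the octamer core was found in 3.94% of 35116 promoters of the same length, the SOX element in 9.29% and both in 0.541%. A match is a run of letters, not a measured site. The GC content was 47.6% for NANOG, 68.8% for SOX2 and 69.2% for KLF4, beside a median of 58.0%.

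Pools differed in depth. The cells kept per pool numbered 571 to 6142, their median depth lay between 23717 and 80168 UMIs, and pool sums ranged from 33181614 to 180056814 UMIs. The 15 fibroblast markers summed to 12118 and 11964 CPM on D0, and the 27 genes of a list of the pluripotency network, which holds no member, to 3.29 and 3.06 CPM, so the D0 cells matched their label. At most 1.63% of the barcodes of a smaller library were shared with another library. Of the 16 pools, 6 were captured as 2 aliquots. Aliquots differed in members in several of these pools, as given below, and the widest gaps lay in pool A of D9. In its first aliquot, with 143 cells, LIN28A stood at 867 CPM against 81.5 in the second aliquot of 1599 cells. Without the first aliquot, pool A of D9 fell to 81.5 CPM for LIN28A and 14.1 for SOX2, and values without it stand beside the results it moves. Wilson intervals given for shares of cells cover counting error only.

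The 6 genes lie on 6 chromosomes (GRCh38, gencode v44). POU5F1 (ENSG00000204531) is on chromosome 6 from 31164337 to 31180731, minus strand, and shares 248 exonic bases with TCF19 on the other strand. SOX2 (ENSG00000181449) is a gene of 1 exon on chromosome 3 from 181711925 to 181714436, plus strand, inside the long non-coding gene SOX2-OT, which is not used here. NANOG (ENSG00000111704) is on chromosome 12 from 7787794 to 7799146, plus strand. LIN28A (ENSG00000131914) is on chromosome 1 from 26410817 to 26429728, plus strand. KLF4 (ENSG00000136826) is on chromosome 9 from 107484852 to 107490482, minus strand. MYC (ENSG00000136997) is on chromosome 8 from 127735434 to 127742951, plus strand, and shares 194 exonic bases with the antisense gene CASC11.

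POU5F1 rose over each of the 4 intervals up to D9. Its level was 0.126 and 0.156 CPM in pools A and B of D0, 0.671 and 1.40 on D3, 3.48 and 5.95 on D5, 40.2 and 31.5 on D7, 422 and 465 on D9, 842 and 941 on D11, 1308 and 707 on D13, and 1159 and 1141 on D15. Both pools of each day up to D11 lay above both pools of the day before, whereas D11, D13 and D15 overlapped through the spread of D13. With an edgeR quasi-likelihood fit on the sums of all 16 pools, in which a call needed a log2 fold change beyond 0.25 and a p below 0.01 after Benjamini-Hochberg adjustment, POU5F1 was called between D0 and D3 with a log2 fold change of 2.88 ± 0.44 (SE, adjusted p = 3.1e-04). It was called again on the way to D5 (2.09 ± 0.37, adjusted p = 0.0040), to D7 (2.92 ± 0.37, adjusted p = 6.4e-04) and to D9 (3.59 ± 0.37, adjusted p = 6.9e-05). The call between D3 and D5 was lost without pool A of D3 (adjusted p = 0.023) or pool B of D5 (adjusted p = 0.042), and that between D5 and D7 without pool A of D5 (adjusted p = 0.022). From D0 to D15 the ratio of the levels was 8184, with the UMIs of both pools of a day summed.

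NANOG followed later, and it was the one core factor below its D0 level on D3. Its level was 0.384 and 0.482 CPM on D0, 0.0852 and 0.0464 on D3, 0.856 and 0.539 on D5, 12.8 and 10.2 on D7, 66.4 and 65.4 on D9, 45.1 and 60.7 on D11, 70.4 and 62.6 on D13, and 37.8 and 43.4 on D15. Summed over both pools, NANOG had 135 UMIs on D0 and 15 UMIs on D3. The ratio of the summed levels was 0.142, with an exact counting interval of 0.0775 to 0.243. Between D0 and D3 the fall passed the test (log2 fold change −2.80 ± 0.32, adjusted p = 4.3e-05), and so did the rises to D5 (3.44 ± 0.33, adjusted p = 4.0e-05), to D7 (4.00 ± 0.25, adjusted p = 1.8e-05) and to D9 (2.48 ± 0.22, adjusted p = 2.9e-05). From D9 on, no step between neighbouring days was called: D15 lay below the other late days in both pools, its log2 fold change from D13 being −0.69 ± 0.21 (adjusted p = 0.084). NANOGP8, a nearly identical copy of NANOG on chromosome 15, had 0 UMIs on D0 and 12 and 13 UMIs in pools A and B of D3, where NANOG had 8 and 7, and stood at no more than 0.466 CPM in any pool. With the UMIs of the copy added, an alternative chosen after the data were seen, the level was 0.213 and 0.132 CPM on D3, and the fall from D0 was smaller but still called (log2 fold change −1.39 ± 0.27, adjusted p = 0.0015). How reads were divided between the 2 copies is uncertain.

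SOX2 rose between D0 and D3, was lower on D7 than on D5 in both pools, and was highest on D11 to D15. Its level was 0.00600 and 0.0204 CPM on D0 (1 and 3 UMIs), 3.54 and 12.4 on D3, 32.4 and 52.1 on D5, 27.0 and 11.1 on D7, 30.2 and 22.5 on D9, 76.4 and 74.1 on D11, 161 and 154 on D13, and 274 and 245 on D15. The days fell in the order D15, D13, D11, D5, D9, D7, D3 and D0 by mean level, with overlapping pools between D9 and D7 and between D7 and D3. Without the first aliquot of pool A of D9 the mean of D9 was 18.3 CPM, below that of D7 (19.1). In each pool of D3 SOX2 lay far above D0. With the UMIs of both pools summed, the level on D3 was 706 times that of D0, with an exact counting interval of 275 to 2595. The interval is wide because D0 held 4 UMIs, and it does not cover the spread between pools. Leaving out each pool, the log2 fold change ran from 7.91 to 10.1. Called were the change from D0 to D3 (adjusted p = 1.7e-05) and no later step between neighbouring days, the largest being those between D3 and D5 (log2 fold change 2.33 ± 0.54, adjusted p = 0.020) and between D9 and D11 (1.49 ± 0.52, adjusted p = 0.094, or 2.01 ± 0.53 with adjusted p = 0.035 without that aliquot). Over the wider comparison of D11 to D15 with D3 to D7, SOX2 was called with 2.92 ± 0.32 (adjusted p = 4.9e-06).

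LIN28A also rose between D0 and D3, and on D3, D7 and D13 its 2 pools were then far apart. Its level was 0.0120 and 0 CPM on D0 (2 and 0 UMIs; 3 UMIs in pool B would be 0.0204 CPM), 14.5 and 65.1 on D3, 182 and 258 on D5, 222 and 87.4 on D7, 167 and 150 on D9, 220.1 and 171 on D11, 149 and 536 on D13, and 553 and 321 on D15. From D5 to D11 the day means lay between 155 and 220.0 CPM, although without the first aliquot of pool A of D9 the mean of D9 was 116 CPM. The pools of D13 stood at 149 and 536 CPM, on either side of the means of D5 to D11 with all aliquots. With the UMIs of both pools summed, the level on D3 was 7176 times that of D0 (counting interval 1986 to 59264). The change was called (adjusted p = 3.6e-05), and leaving out each pool its log2 fold change ran from 10.8 to 15.2. No later step was called, the largest being that from D3 to D5 (2.39 ± 0.74, adjusted p = 0.079). For D11 to D15 against D3 to D7 LIN28A passed narrowly (log2 fold change 1.45 ± 0.42, adjusted p = 0.0093), and the call was lost without the first aliquot of pool A of D9 (adjusted p = 0.011) and without any one pool other than pool B of D3, pool A of D7 and pool A of D13 (adjusted p from 0.012 to 0.033 over those 13 pools).

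KLF4 moved the other way. Its level was 49.1 and 58.2 CPM on D0, 5.76 and 2.55 on D3, 9.55 and 4.22 on D5, 2.84 and 8.20 on D7, 6.64 and 5.29 on D9, 2.22 and 5.88 on D11, 5.03 and 1.93 on D13, and 1.72 and 1.56 on D15. Both pools of D0 lay above every later pool, and from D3 to D13 neighbouring days overlapped. Its fall by D3 was called, at a log2 fold change of −3.75 ± 0.63 (adjusted p = 6.2e-04), as was that by D15 (−5.10 ± 0.69, adjusted p = 3.0e-05).

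MYC showed no ordered course. Its level was 18.4 and 19.0 CPM on D0, 19.5 and 8.57 on D3, 46.9 and 29.7 on D5, 18.7 and 23.5 on D7, 49.4 and 47.1 on D9, 36.9 and 62.8 on D11, 72.0 and 27.7 on D13, and 21.5 and 23.6 on D15. D9 was the day on which both pools were high and close together, and the level of D15 was near that of D0. With edgeR, MYC was called in 0 of the 9 comparisons (4 at an unadjusted p below 0.05, and 2 called by DESeq2, from D3 to D5 and for D11 to D15 against D3 to D7), with log2 fold changes of −0.47 ± 0.39 from D0 to D3 (adjusted p = 0.36) and 0.21 ± 0.39 from D0 to D15 (adjusted p = 0.66). The closest was D11 to D15 against D3 to D7, with 0.73 ± 0.23 (adjusted p = 0.014).

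**Figure D1:**
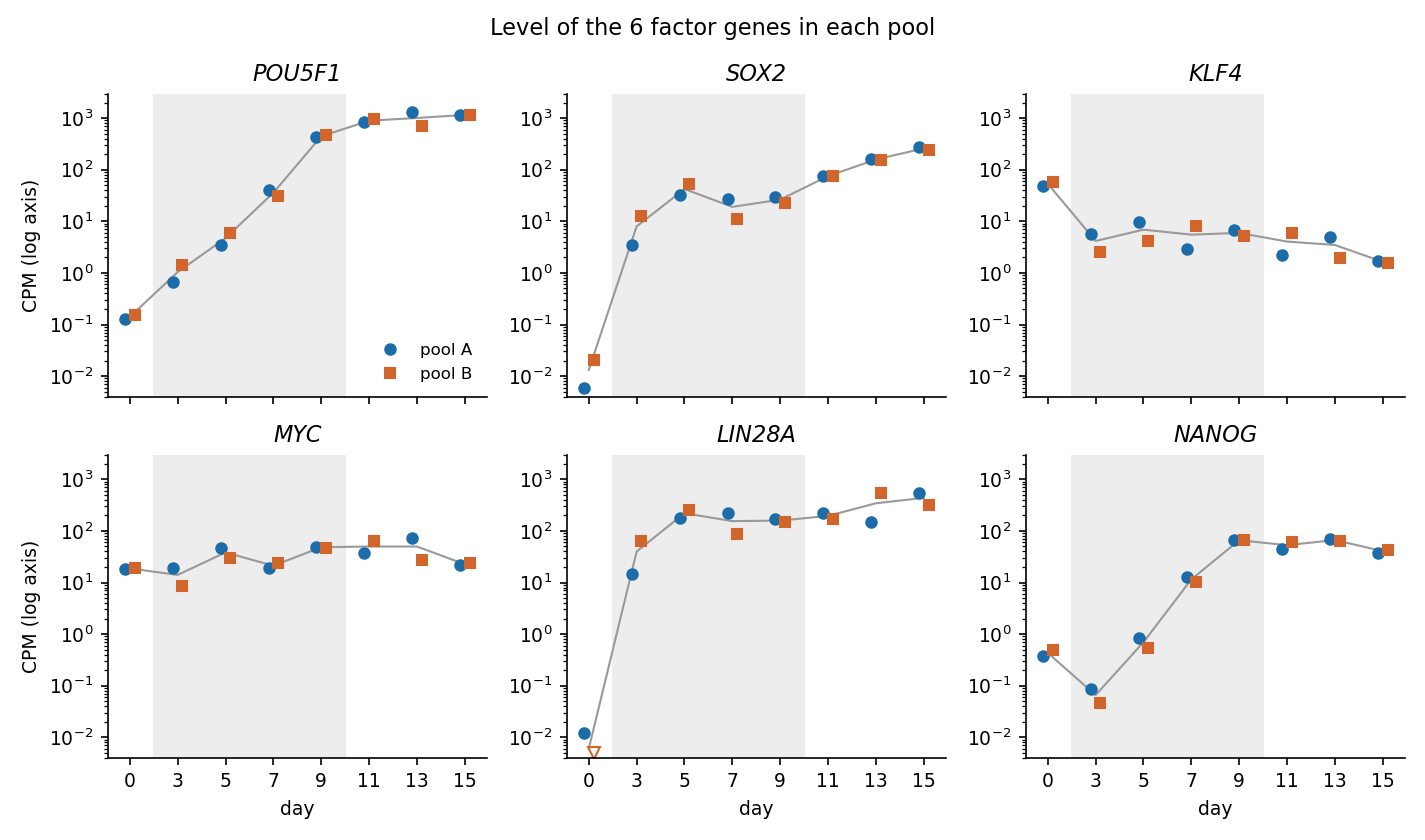
Level of each of the 6 genes in CPM (log axis) by day, 1 point per pool and a line through the day means; the grey band marks D3 to D9 and the open triangle a pool with 0 UMIs. POU5F1 climbs from 0.141 CPM on D0 to 1150.4 on D15 by mean level, KLF4 falls from 53.7 to 1.64, and MYC stays between 14.0 and 49.9.

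The members' calls are set beside the share of all genes called over the same interval, as a description with no test of the difference. From D0 to D3, 5 of 6 members were called (3 up, 2 down), beside 25.6% of all genes tested. From D3 to D5, 2 of 6 were called beside 3.56%, from D5 to D7 2 of 6 beside 2.06%, and from D7 to D9 2 of 6 beside 7.37%, in each case POU5F1 and NANOG, both up. From D9 to D11, D11 to D13 and D13 to D15, 0 of 6 were called with edgeR, beside 4.09%, 0.117% and 0.086% of all genes. DESeq2 also called 0 in these intervals, and the members with an unadjusted edgeR p below 0.05 were 2 (POU5F1 and SOX2), 1 (SOX2) and 2 (MYC and NANOG). From D0 to D15, 5 of 6 were called (4 up and KLF4 down) beside 53.4%, and for D11 to D15 against D3 to D7 4 of 6, all up, beside 45.8%. In these wide comparisons a call was common among all genes, and POU5F1, SOX2, LIN28A and NANOG, found in few cells of D0, passed the filter on genes through the later days, so that a rise was built in for them, over the intervals from D3 to D9 as well as from D0 to D15. From D0 to D3 POU5F1, SOX2 and LIN28A, with 44, 4 and 2 UMIs on D0, could hardly fall either, so their rises there are descriptions too. The number called from D3 to D5 was 4 with DESeq2 (MYC and SOX2 added) and 4 without the filter on genes (LIN28A and SOX2 added). With the pools of the compared days alone, where the spread rests on 4 pools, 0 members passed from D0 to D3 (adjusted p from 0.013 to 0.022 for the 5), 0 between D3 and D5, 3 between D7 and D9 (MYC added) and 2 between D9 and D11 (POU5F1 and SOX2).

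**Figure D2:**
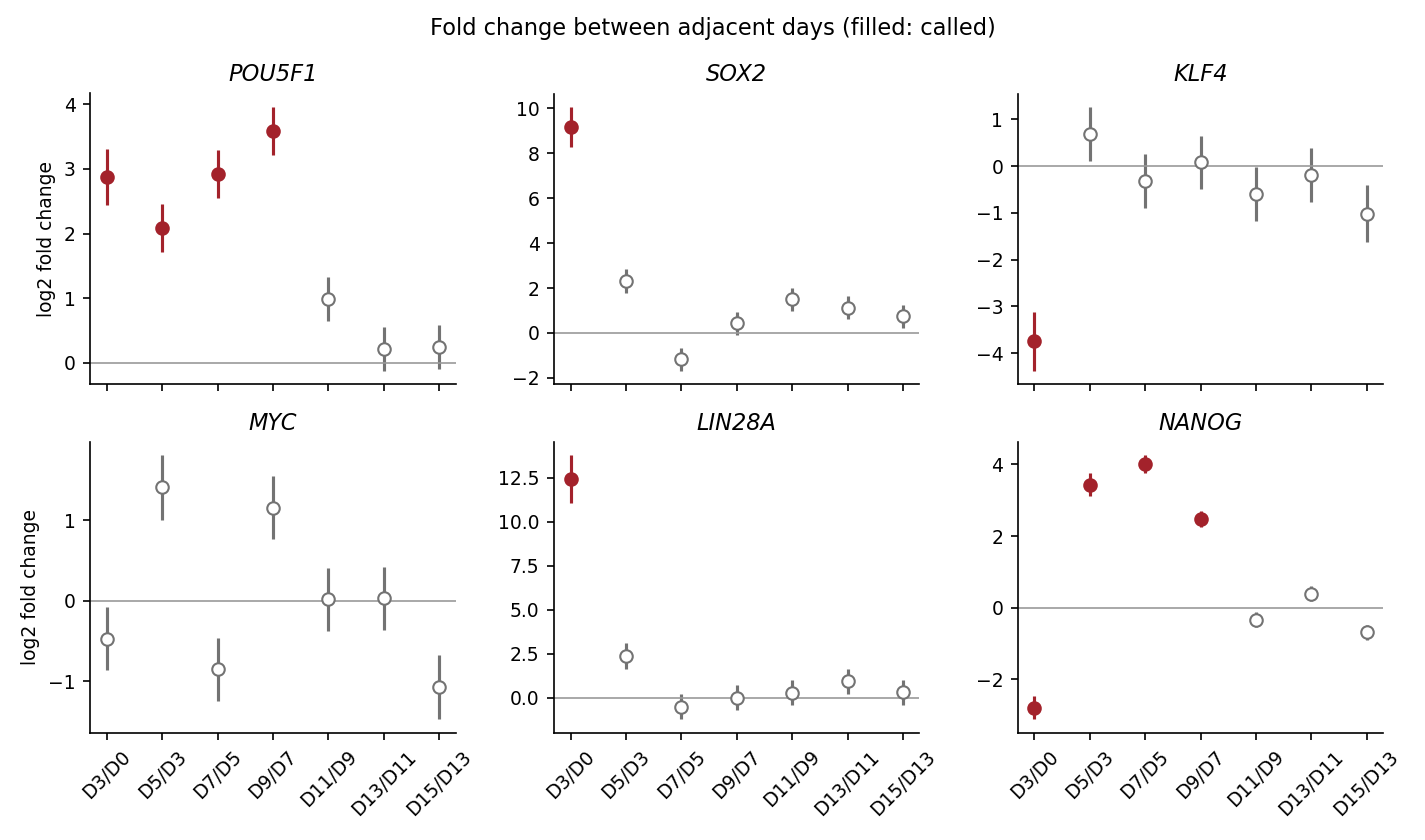
Log2 fold change of each member over the 7 intervals between neighbouring days from the edgeR fit (bars are standard errors), filled where called. POU5F1 and NANOG have filled points up to D9, and the last 3 intervals have none.

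The shares of cells that held a UMI of a member showed how widely each was spread. Each cell was thinned to 5000 UMIs, which left out no cell. On D0, in libraries of untransfected fibroblasts, POU5F1 had a share of 0.0784% ± 0.0418 (SD, n = 2 pools), where 3 of 6142 and 5 of 4634 cells had a UMI at median depths of 23717 and 28377 UMIs before thinning. Its share was 0.432% ± 0.159 on D3, 2.22% ± 1.38 on D5 and 8.03% ± 3.96 on D7, and then 50.3% ± 8.03 on D9, 73.8% ± 12.1 on D11 and 78.8% ± 14.6 on D13. It ended at 91.1% ± 1.27 on D15. NANOG reached 21.7% ± 0.363 of cells on D9 and 24.6% ± 1.09 on D13, from 0.189% ± 0.0375 on D0 and 0.0741% ± 0.0456 on D3. Both genes thus stayed rare until D5, while LIN28A was already found in 12.1% ± 9.82 of cells on D3 and 31.9% ± 4.44 on D5, and SOX2 in 3.06% ± 2.30 and 9.96% ± 1.53. LIN28A ended at 80.6% ± 8.60 and SOX2 at 63.0% ± 3.22 on D15, from 1 of 6142 and 0 of 4634 cells (Wilson upper limit 0.0828%) and from 0 of 6142 (upper limit 0.0625%) and 1 of 4634 cells on D0. The D0 libraries were captured apart from the later ones, so they do not measure what free RNA adds to a later droplet, and that share was not tested.

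The D0 fibroblasts held KLF4 in 23.2% ± 2.22 of cells, against 2.39% ± 0.534 on D3 and 0.50% ± 0.0361 on D15. For MYC the share was 8.31% ± 0.456 on D0 and 10.4% ± 0.556 on D15, with 17.6% ± 6.20 on D5 and 19.3% ± 2.37 on D9 in between. The shares of LIN28A on D13 were 42.3% (Wilson interval 39.7 to 44.9) in pool A and 87.7% (86.6 to 88.7) in pool B. These intervals do not cover the spread between pools, which was also wide on D7 (35.1% ± 22.2). The 2 pools of D13 also differed in the fibroblast markers, which summed to 4113 CPM in pool A and 2365 in pool B (all 15 markers), and in the 8 trophoblast markers (123 and 42.0 CPM). The pluripotency network summed to 2846 and 2439 CPM there. On D3 and D7, too, the pool with less LIN28A had the higher sum of fibroblast markers (6073 and 5601 CPM in pools A and B of D3, 4212 and 7007 on D7). The network summed to 32.1 and 61.2 CPM on D3 and to 544 and 375 on D7. The part of these markers in the gaps in LIN28A was not tested.

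**Figure D3:**
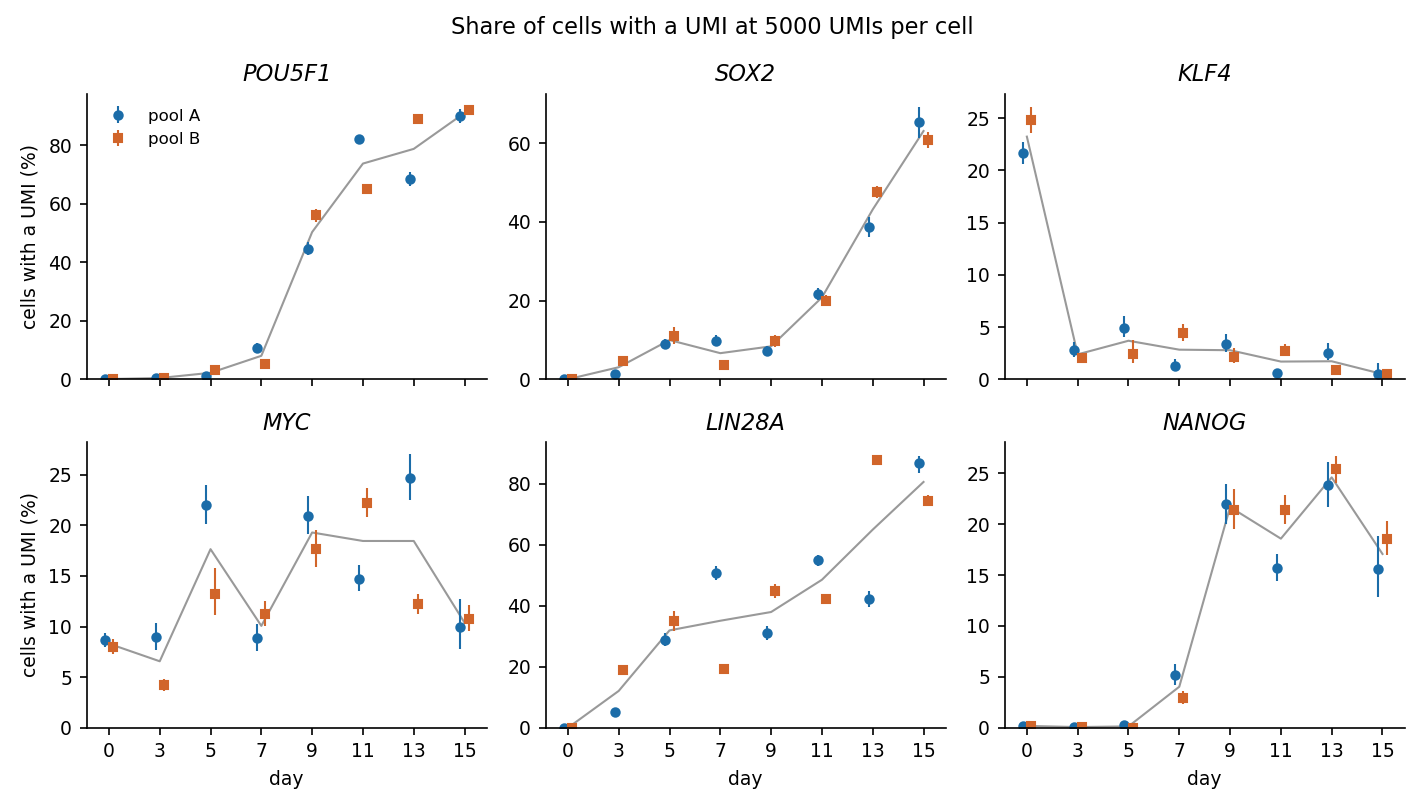
Share of cells with at least 1 UMI of each member after thinning to 5000 UMIs per cell, by day, with 1 point per pool and Wilson 95% intervals. POU5F1 passes from 2.22% of cells on D5 to 50.3% on D9 by mean share, while LIN28A is already at 31.9% on D5.

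Counted together, the number of the 6 members found in a cell at this depth averaged 0.318 on D0 and 0.246 on D3, then 0.656 and 0.667 on the next 2 days sampled, 1.40 on D9, 1.82 and 2.32 on D11 and D13, and 2.63 at the end. On D0, 71.2% and 68.8% of cells of pools A and B held none of the 6, against 3.85% and 3.65% on D15. No cell of D0 held 3 or more, whereas 19.4% ± 2.01 of cells on D9, 49.2% ± 10.7 on D13 and 62.9% ± 7.42 on D15 did (SD, n = 2 pools). Each mean depends on the depth chosen: with all UMIs of a cell, the averages on D0 and D15 were 1.04 and 4.11.

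SOX2 and LIN28A were often in the same cells. In the pools of D5, 107 and 68 cells held both, 2.37 and 2.15 times the number expected if the genes were independent, and the rank correlation of their CPM over cells was 0.63 and 0.53. It was 0.63 and 0.71 on D11, 0.70 and 0.57 on D13 and 0.47 and 0.44 on D15. The number found together was 1.34 and 1.73 times that expected on D11 and 1.46 and 1.05 times on D13. In pool B of D13, 3568 of 4069 cells held LIN28A, which leaves little room above the number expected. These correlations over cells describe each pool and share its depth. POU5F1 and NANOG were found together in 19 and 20 cells on D7 (1.97 and 5.23 times the number expected) and in 295 and 276 cells on D9 (1.73 and 1.39 times), with rank correlations of 0.69 and 0.66 on D9, 0.70 and 0.77 on D11 and 0.44 and 0.39 on D15. In pool A of D9, 77.2% of the cells with NANOG also held POU5F1, against 35.5% of the cells without it. Other pairs went together too. The rank correlation of POU5F1 with LIN28A was 0.32 and 0.32 on D5, 0.68 and 0.63 on D9 and 0.74 and 0.76 on D11. That of SOX2 with LIN28A was 0.51 and 0.44 on D9. POU5F1 and SOX2 were found together 1.81 and 1.43 times the number expected on D9, and POU5F1 and LIN28A 1.46 and 1.29 times. The values of D9 and D11 are thus not particular to the pairs described first.

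Within the later pools the members went with the pluripotency network listed above, which includes TDGF1 (a co-receptor for NODAL), DPPA4 and the RNA-binding protein L1TD1. Cells of each pool of D9 to D15 were ranked by the summed CPM of this list and split into 3 groups of equal size, and the top group was compared with the bottom group by an exact paired permutation test over the 8 pools (two-sided). The smallest p it can give is 0.0078, which 5 of the 6 members reached before adjustment, and adjusted p-values cover the 6 tests made here and not all genes. The share of all genes that would pass the same test was not computed, so the number of members that passed has no background beside it. POU5F1 was higher in the top group in 8 of 8 pools, by 3.09 ± 1.97 on the log2(CPM + 1) scale (SD, n = 8, adjusted p = 0.0094). NANOG was higher by 3.41 ± 1.83 (8 of 8 pools, adjusted p = 0.0094), SOX2 by 2.73 ± 2.06 (8 of 8, adjusted p = 0.0094) and LIN28A by 1.90 ± 1.24 (8 of 8, adjusted p = 0.0094). MYC (0.85 ± 0.56, 8 of 8 pools, adjusted p = 0.0094) and KLF4 (0.82 ± 0.56, 7 of 8 pools, adjusted p = 0.016) differed by less. The cells of the top group were also deeper, for example with medians of 72474 and 48380 UMIs in pool A of D9. The 15 fibroblast markers summed to between 3108 and 13664 CPM in the bottom groups and between 573 and 1521 in the top groups, with 14 or 15 of the 15 lower in the top group of each pool and none at 0. On D9, AES stood at 14338 and 12437 CPM in the bottom groups of pools A and B and at 4866 and 3811 in the top groups. The part of depth, fibroblast markers and AES in these differences was not tested.

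The width of the gap changed with the day. In pool A of D9 POU5F1 stood at 22.4 CPM in the bottom group and 906 in the top group, and in pool A of D13 at 62.2 and 1928, whereas in pool A of D15 it stood at 811 and 1350.3. The mean difference of POU5F1 over the 4 days in turn was 4.58, 3.90, 3.12 and 0.76, and that of NANOG 4.55, 4.00, 3.74 and 1.35, on the log2(CPM + 1) scale. For SOX2 (2.19, 4.29, 3.88 and 0.59), LIN28A (1.91, 3.07, 2.09 and 0.55) and MYC (0.58, 1.67, 0.71 and 0.43) it was widest on D11, and for KLF4 (1.01, 0.86, 1.27 and 0.16) on D13. Single pools did not all share these orders. In pool A SOX2 (5.96) and LIN28A (3.12) were widest on D13, and in pool B KLF4 was lower on D13 (0.71) than on D9 (0.98). For POU5F1 and NANOG the gap did not narrow day by day in either pool. Without the first aliquot of pool A of D9, the 6 members kept their calls by the network (LIN28A 2.34 and SOX2 2.56 in that pool). The pools of D13 were unlike each other, with 4.93 in pool A and 1.31 in pool B for POU5F1. The pools of D11 differed too, with 2.65 in pool A and 5.14 in pool B for POU5F1, 3.02 and 5.55 for SOX2 and 2.21 and 3.92 for LIN28A. In shares of cells, pool A of D11 held POU5F1 in 62.6% of the bottom and 99.2% of the top group, and pool B held POU5F1 in 19.0% of the bottom and 99.4% of the top group, LIN28A in 8.14% and 71.6%, SOX2 in 1.10% and 44.5%, and NANOG in 1.28% and 43.1%. In pool A of D15 the shares for POU5F1 were 71.6% and 99.5%.

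AES, which codes for a co-repressor of the Groucho family, was used as a second ranking because its level was high from D3 to D9. It stood at 142 and 160 CPM on D0, between 7588 and 14388 CPM in the 8 pools of D3 to D9, and at 363 and 357 on D11. The 3′ end of AES is known as an element added to some synthetic mRNAs, and whether the RNAs used here carry it is not given in the sources used here. AES was called up from D0 to D3 (log2 fold change 5.96 ± 0.31, adjusted p = 5.2e-07) and down from D9 to D11 (−4.77 ± 0.30, adjusted p = 7.5e-06). Transfections ended in the night of day 8 and the medium changed from day 9, so these cannot be told apart in the fall.

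In all 6 pools of D3 to D7, LIN28A and SOX2 were higher in the cells richest in AES, and in all 8 pools of D3 to D9 MYC was lower. Between the top and the bottom group by AES, LIN28A differed by 2.76 ± 1.65 on the log2(CPM + 1) scale (SD, n = 8, higher in 8 of 8 pools, adjusted p = 0.023 by the exact paired permutation test). On D5 its level was 9.98 and 25.4 CPM in the bottom group of pools A and B and 396 and 557 in the top group. On D9 LIN28A stood at 84.9 CPM in the bottom and 253 in the top group of pool A but at 139 and 145 in pool B, and SOX2 differed by 0.82 in pool A and −0.74 in pool B, against 4.54 and 3.98 on D5. SOX2 differed by 2.32 ± 1.67 (7 of 8 pools, adjusted p = 0.031), a call that was lost (adjusted p = 0.062) without pool A or B of D3, D5 or D7 or pool A of D9. The difference then lay between 2.01 (without pool A of D5) and 2.54 (without pool A of D9), and the smallest p possible is larger with 7 pools than with 8. Leaving out each pool, LIN28A kept its call, also without the whole of pool A of D9 (2.93, higher in 7 of 7 pools, adjusted p = 0.047). With that pool kept but without its first aliquot, an alternative chosen after the data were seen, the differences in that pool turned to −0.29 for LIN28A (82.4 CPM in the bottom and 67.0 in the top group) and −1.71 for SOX2, and over the 8 pools LIN28A (2.53 ± 1.94, higher in 7 of 8, adjusted p = 0.070) and SOX2 (2.01 ± 2.16, 6 of 8, adjusted p = 0.094) were no longer called, while MYC was (−1.35 ± 0.54, lower in 8 of 8, adjusted p = 0.047). MYC was lower in the top group in 8 of 8 pools, by −1.32 ± 0.51 (adjusted p = 0.023), for example with 41.5 CPM in the bottom and 11.3 in the top group of pool A of D3. POU5F1 (−0.25 ± 1.77, 4 of 8 pools higher, adjusted p = 0.69), KLF4 (−0.34 ± 0.64, 3 of 8, adjusted p = 0.25) and NANOG (0.26 ± 0.56, 6 of 8, adjusted p = 0.27) did not pass. The cells of the top group were deeper here too, with medians of 55474 and 31426 UMIs in pool A of D5. The 15 fibroblast markers summed to between 3744 and 13373 CPM in the bottom groups and between 2000.0 and 6179 in the top groups, with 12 or 13 of the 15 lower in the top group of each pool and none at 0. The part of depth and of these markers was not tested. For the ranking by AES, too, the share of all genes that would pass was not computed.

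**Figure D4:**
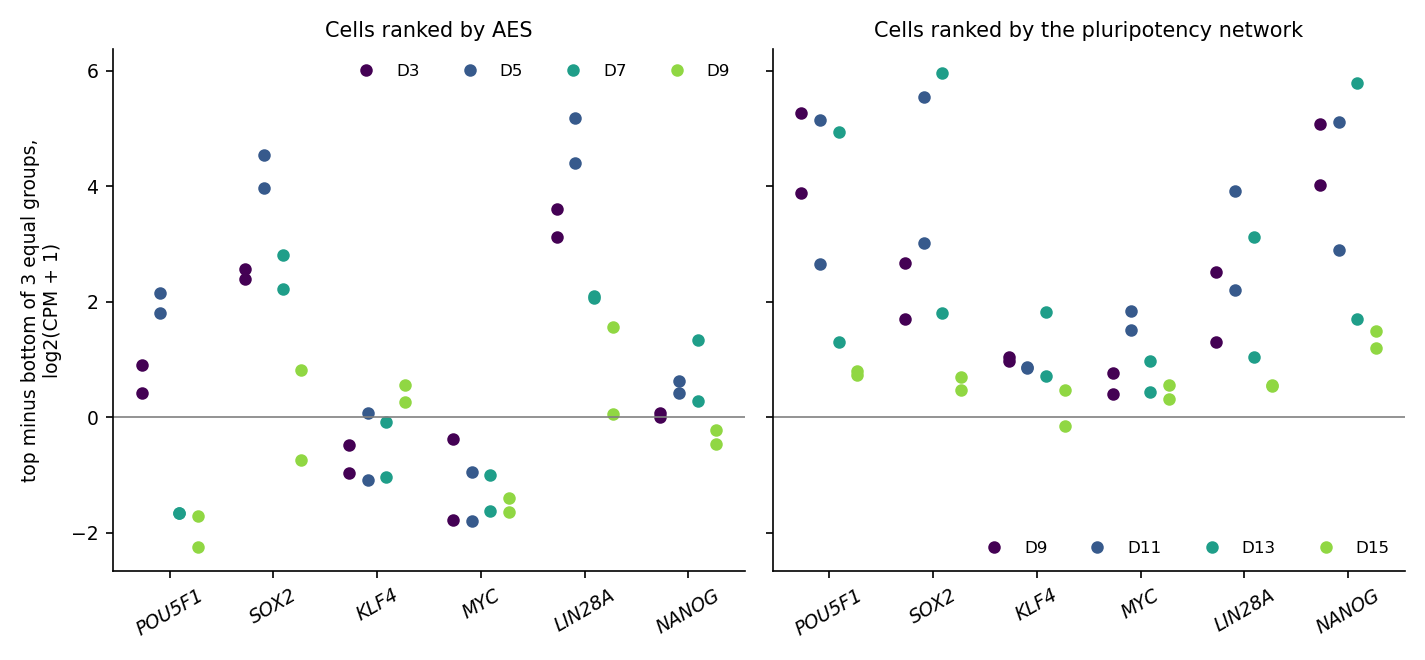
Difference of each member between the top and the bottom group of the cells of a pool (3 equal groups), on the log2(CPM + 1) scale, ranked by AES (pools of D3 to D9) and by the pluripotency network (pools of D9 to D15), 1 point per pool. By the network, POU5F1, SOX2, MYC, LIN28A and NANOG lie above 0 in all 8 pools. By AES, MYC lies below 0 in all 8, and LIN28A above 0 in all 8 only with both aliquots of pool A of D9.

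In summed level, aliquots of the same pool differed more in LIN28A and SOX2 than in the other members on D7 and D9. In pool A of D9, SOX2 stood at 162 CPM in the first aliquot and 14.1 in the second, a ratio of 11.5, and LIN28A at a ratio of 10.6. POU5F1 (471 and 416 CPM) and NANOG (79.3 and 64.8) were close in summed level but not in shares of cells. LIN28A was found in 83.9% of the 143 cells of the first and 26.3% of the 1599 cells of the second aliquot. In the same 2 libraries POU5F1 was found in 67.1% and 42.7% of cells and NANOG in 30.8% and 21.1%. Of 7198 genes of at least 10 CPM, 24 (0.333%) differed by as much as LIN28A between these libraries or by more. In pool B of D7, LIN28A stood at 210.1 and 52.7 CPM and SOX2 at 24.9 and 7.22, and in pool B of D9 at 223 and 89.9 and at 32.3 and 14.6. In shares of cells, the first and second aliquot of pool B of D9 held POU5F1 in 67.9% and 42.1% and LIN28A in 59.7% and 27.6%. On D5 the aliquots were closer for LIN28A, with 176 and 205 CPM in pool A and 298 and 244 in pool B, while MYC differed (53.7 and 21.1 in pool A, 58.9 and 19.4 in pool B), as did KLF4 (10.9 and 4.61, 8.39 and 2.76). POU5F1 was close in pool A of D5 (3.43 and 3.66 CPM) and apart in pool B (11.7 and 3.95), and its call between D3 and D5 held with the first aliquots alone (adjusted p = 0.0048) and with the second alone (adjusted p = 0.0064). On D11 the aliquots of pool B held LIN28A at 246 and 159 CPM and POU5F1 at 928 and 944. AES did not always go with LIN28A: in pool B of D7 it was lower in the first aliquot (5574 and 8159 CPM), and in pool A of D9 higher (18390.2 and 10640.4). Aliquots of a pool were summed, so the SDs and tests between pools do not cover the differences between aliquots.

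**Figure D5:**
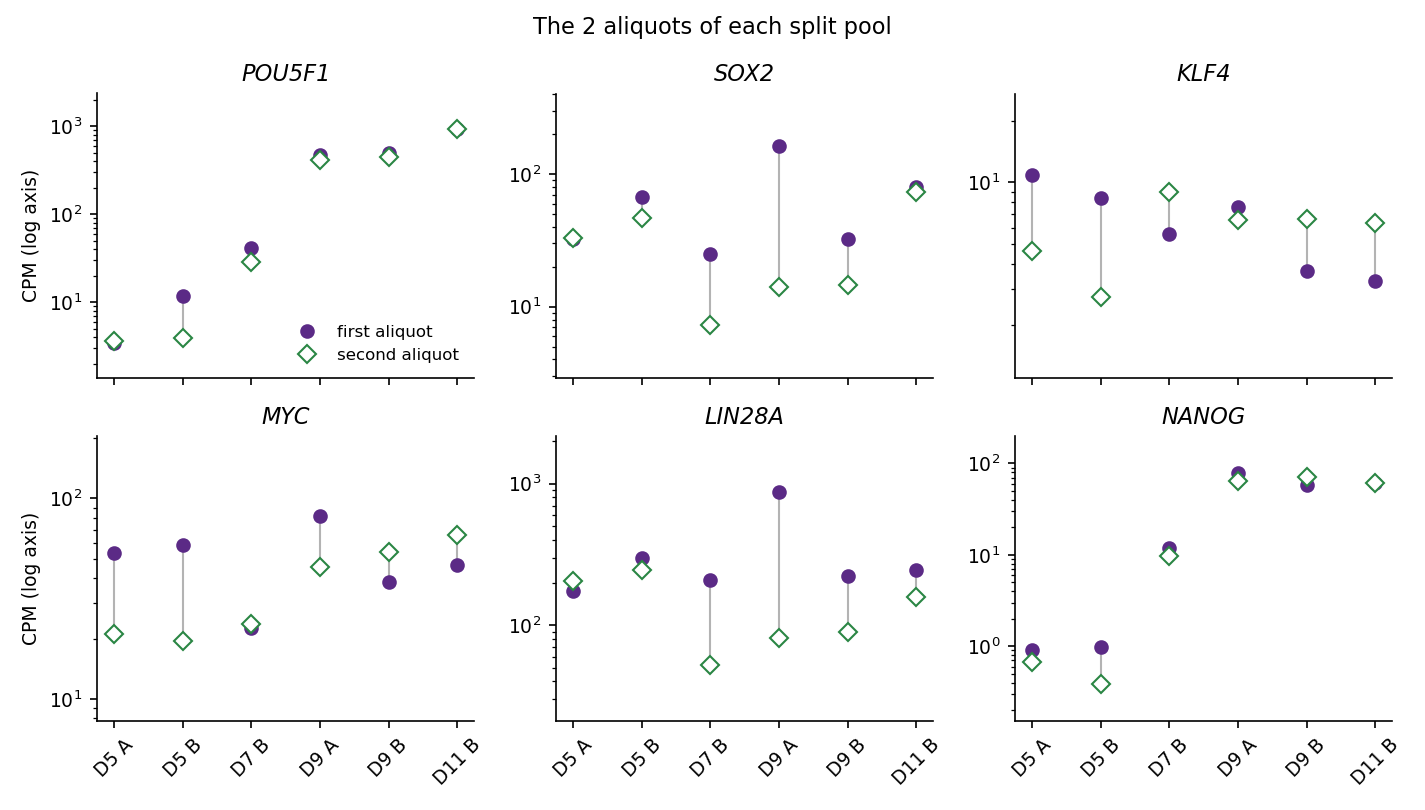
Level of each member in CPM (log axis) in the first and second aliquot of the 6 pools that were captured as 2 libraries, joined by a line per pool. In pool A of D9 LIN28A is at 867 and 81.5 CPM and SOX2 at 162 and 14.1, while the lines of POU5F1 and NANOG are flatter.

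The calls between days were recomputed from 1 aliquot per split pool, which was chosen after the data were seen. The number of members called was the same as with all aliquots in each of the 9 comparisons, although for D11 to D15 against D3 to D7 LIN28A gave way to KLF4 (first aliquots) or MYC (second aliquots). Among the directions that turned were those of SOX2 from D9 to D11 (−0.26 from the first aliquots, adjusted p = 0.85) and from D7 to D9 (−0.29 from the second, adjusted p = 0.79), and of LIN28A from D9 to D11 (−1.18 from the first, adjusted p = 0.35), none of them called. Where cells were ranked within each library in place of the pool, all 6 members kept their calls by the network, with LIN28A and SOX2 now higher in 7 of 8 pools, and LIN28A, SOX2 and MYC kept theirs by AES.

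The number of SOX2 UMIs per LIN28A UMI was lower in each library of D3 to D9 than in each library of D11 to D15. It lay between 0.118 and 0.243 in the 13 libraries of D3 to D9 (median 0.173) and between 0.288 and 1.08 in the 7 libraries of D11 to D15 (median 0.461), so the 2 ranges did not overlap. In pool A of D9 the ratio was 0.187 in the first and 0.173 in the second aliquot, although the levels of both genes differed by more than 10 times. The closest values were 0.243 in pool A of D3 and 0.288 in pool B of D13, while pool A of D13 stood at 1.08. The ratio is compared between libraries with no test and is not a ratio of transcript numbers. Other pairs of genes were not compared, so how often a ratio separates these libraries is not known. Of all genes, 45.8% were called for D11 to D15 against D3 to D7. Some of the libraries are aliquots of the same pool, so they are not replicates.

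The families and partners of the members, a list of 23 genes of which 17 were tested, moved in both directions. From D0 to D3, 0 rose and 4 fell (beside 13.1% and 12.6% of all genes, median −0.49 beside −0.06): KLF2 (log2 fold change −2.90), KLF6 (−1.77) and KLF9 (−1.52), relatives of KLF4, and MXD1 (−1.16), which competes with MYC for MAX. From D3 to D5 MYCL rose (1.83), 1 of 17 beside 3.2% of all genes, and from D5 to D7 MYCN and POU5F1B rose, 2 of 17 beside 1.81%. MYCN, the MYC relative of early embryonic cells, had 0 UMIs in the 6 pools of D0 to D5 and stood at 17.0 and 15.4 CPM on D15. LIN28B, the paralogue of LIN28A, had 0 UMIs on D0, stood at 6.70 and 11.9 CPM on D9 and reached 60.2 and 52.0 on D15. From D7 to D9, 5 rose, among them MYCN (3.89), POU5F1B (3.63), LIN28B (3.61) and SOX15 (1.82), beside 4.59% of all genes. MYCN, POU5F1B and LIN28B were near 0 up to D5 and passed the filter on genes through the later days. They could hardly do other than rise, so these counts are descriptions. From D9 to D11 SOX11 rose, 1 of 17 beside 2.92%, a share near the background. From D11 to D13 and D13 to D15 none of the 17 was called, beside 0.117% and 0.086% of all genes. From D0 to D15, 9 rose and 5 fell, beside 26.8% and 26.7% of all genes. POU5F1B, a nearly identical retrogene copy of POU5F1 on chromosome 8, stood at 36.6 and 25.3 CPM on D15, and how reads were divided between the 2 is uncertain.

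Of the 23 tested genes of the pluripotency network, 5 rose from D0 to D3 (L1TD1 by 4.43), 11 from D3 to D5 (TDGF1 by 7.91), 13 from D5 to D7, 20 from D7 to D9 and 5 from D9 to D11 (DNMT3B by 1.75), with none falling. Over these 5 intervals in turn, 13.1%, 3.2%, 1.81%, 4.59% and 2.92% of all genes rose. In the last 2 intervals 0 of 23 were called, beside 0.117% and 0.086% of all genes. At this background a list of this size is likely to hold no call. All 23 rose from D0 to D15, but genes near 0 on D0 that passed the filter through the later days had to rise, so these counts are descriptions. Of 16 genes regulated by MYC in many cell types, 14 rose from D0 to D3 (median 1.69, beside 13.1% of all genes and a median of −0.06), among them NOP16 (3.54), TFRC, the transferrin receptor (2.51), and RRS1 (2.29), both NOP16 and RRS1 acting in ribosome assembly. MYC itself was not called over that interval. Over the later intervals between neighbouring days 0 of the 16 were called, beside 3.56%, 2.06%, 7.37%, 4.09%, 0.117% and 0.086% of all genes in turn. Of the 15 fibroblast markers, 7 fell from D0 to D3 (beside 12.6% of all genes), among them the matrix genes LUM (−1.97) and DCN (−1.80), while COL3A1 (307 and 349 CPM on D0, 464 and 400.4 on D3) and THY1 (502 and 468, then 554 and 616) were not called. The markers did not fall steadily. From D3 to D5 1 rose (beside 3.2% of all genes), and from D7 to D9 3 fell (beside 2.78%). From D9 to D11 2 rose (beside 2.92%), and from D13 to D15 1 fell (beside 0.086%). FN1 stood at 185 and 187 CPM on D9 and at 725 and 747 on D11. From D0 to D15, 12 markers fell (median −3.86, beside 26.7% of all genes and a median of 0.01), and the matrix gene FN1, at 171 and 194 CPM on D0 and 268 and 349.5 on D15, was not called.

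The lists of other lineages were small. Of the mesendoderm markers 4 of 10 were tested, and MIXL1 (2.97) and HHEX (2.84) rose from D0 to D3. MIXL1 stayed near 0 there, at 0.0360 and 0.0272 CPM on D0, 0.298 and 0.232 on D3 and 0.392 and 0.373 on D7. CER1, EOMES and MIXL1 rose from D7 to D9 and from D9 to D11. HHEX went the other way after D3, from 31.9 and 16.5 CPM to 15.5 and 14.6 on D7 and 7.72 and 6.01 on D9, with no call between neighbouring days. The list summed to 3.33 and 3.49 CPM on D0 and 209 and 156 on D11. Of the 8 trophoblast markers 3 were tested, and CSH1 rose over the intervals ending on D7 and D9. The other two, TFAP2A and KRT7, were not called there, at 53.2 and 52.2 CPM on D5 and 32.1 and 32.5 on D9 for TFAP2A and at 25.2 and 24.6 and then 14.2 and 15.4 for KRT7. With 4 and 3 genes tested, these lists are too small to set against the shares of all genes. Of the 6 neuroectoderm markers 2 were tested, with no call between neighbouring days.

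Over the 16 pools, the genes whose course was most like that of a member, by Pearson's r of log2(CPM + 1) among genes of at least 10 CPM in a pool, differed from member to member. They were RBPMS2 (an RNA-binding protein), CDH3 (P-cadherin) and DPPA4 for POU5F1 (r = 0.996 each) and PDGFA, CCND2 (cyclin D2) and CD200 for NANOG (0.994, 0.993 and 0.993). For LIN28A they were RP11-148B6.1, the host transcript of the miR-302 cluster (0.985), the DNA glycosylase TDG (0.976) and AKAP7 (0.973). For SOX2 they included ZNF121 (0.959) and UGGT2 (0.958). They were for KLF4 FAM168A (0.973), the mRNA decay factor ZFP36 (0.969) and SPATA18 (0.968), and for MYC UBE2D1 (0.927), SIAH1 (0.925) and ZNF140 (0.923). Among the members, POU5F1 and NANOG (r = 0.973) and SOX2 and LIN28A (0.924) were the closest pairs, and KLF4 and LIN28A (−0.895) the most opposed. These are descriptions over pools that share days.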

How the data were processed

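The authors deposited, for each of 22 droplet libraries (10x 3′ v2, Cell Ranger 2.2, GRCh38), raw counts of UMIs per gene and barcode, with no normalization. They started from polyA RNA, so a count reflects RNA captured near the 3′ end. Barcodes under 1000 genes or over 10% mitochondrial UMIs were removed here, which left 41975 of 44197. Aliquots of a pool were added, which gave 16 pools of 33181614 to 180056814 UMIs, 2 per day. The study reports reprogramming experiments repeated over months, but its methods give for the 2 pools of a day that each joins cells of separate chips, not whether these were separate runs, so p-values measure the spread between pools, which may be technical. No doublet caller was run.

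UMIs summed per pool were tested with edgeR 4.0.16 (quasi-likelihood, TMM, 16 pools in 1 fit) in R 4.3.3 over 12794 genes. The Benjamini-Hochberg adjusted p had to be below 0.01 and the log2 fold change beyond 0.25. Tested on simulated counts for D5 against D3 (12776 genes), the script called 12 of 50 genes changed 2-fold and 50 of 50 at 4-fold, with 0 false calls. The simulated counts had the spread typical of genes at their level. A gene whose pools lie further apart can be missed at 4-fold too. With edgeR, SOX2 and LIN28A changed by more than 4-fold from D3 to D5 and were not called. DESeq2 1.42.0 was an alternative. Top and bottom groups of cells were compared on log2(CPM + 1), with a pseudocount of 1, by the exact paired permutation test. Cells were handled in Python 3.11.15 with scipy 1.17.1, numpy 2.4.6 and pandas 2.3.3, and plots drawn with matplotlib 3.10.9.

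The members and gene lists were chosen with earlier results of these data known. Named were the 6 members, the 3 genes most like each over the pools, up to 4 called genes of each list by size of change, and AES. Some genes that this rule names are not reported here. The recomputations by aliquot, the sum of NANOG and NANOGP8 and the ranking within libraries were chosen after seeing the data. Other alternatives were other size factors, no filter on genes, a block for the pool letter, the compared pools alone, all barcodes, each pool left out, other depths, 2 groups of cells in place of 3, a pseudocount of 0.1 and removal of the 5% deepest cells.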

Additional observations from a re-analysis of the deposited data

Results flagged for a closer look

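POU5F1 went opposite ways with AES on different days when groups of cells were compared. Between the top and the bottom of 3 equal groups of cells by AES, POU5F1 differed on the log2(CPM + 1) scale by 0.43 and 0.90 in pools A and B of D3 and by 2.15 and 1.80 on D5, but by −1.66 and −1.66 on D7 and −2.25 and −1.72 on D9. Both pools of a day had the same sign, and the day means were apart by 2.32 for D3 against D7, 2.65 for D3 against D9, 3.63 for D5 against D7 and 3.96 for D5 against D9. The difference between days was not tested. On D7 the sign depended on the measure: over single cells the rank correlation of POU5F1 with AES was 0.054 and 0.11 on D7, above 0 as on D3 (0.11 and 0.14) and D5 (0.31 and 0.29), and below 0 on D9 (−0.11 and −0.22). In level, POU5F1 stood at 722 CPM in the bottom and 151 in the top group of pool A of D9, and at 0.672 and 6.41 in pool A of D5.

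KLF4 differed by −0.97 and −0.48 on D3 and by 0.27 and 0.56 on D9 between the same groups, so that the day means were apart by 1.15 for D9 against D3. This difference was not tested either.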

How the results depend on the processing

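With 2 pools per day, 2-fold changes are often missed, and so can be larger changes of genes whose pools lie far apart. The members called depend most on where the spread is estimated. With the pools of the compared days alone, 0 members were called between D0 and D3, 0 between D3 and D5 and 2 between D9 and D11. From D3 to D5, 4 were called with DESeq2 and 4 with no filter on genes, and leaving out each pool in turn gave 1 to 3. From D5 to D7, leaving out each pool gave 1 to 2. With pool letters as a replicate block, 3 members in place of 4 were called for D11 to D15 against D3 to D7 (LIN28A 1.46, adjusted p = 0.011), and no other call changed. The letters do not pair the pools: over 28 pairs of days the correlation of their deviations ran from −0.447 to 0.817.

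Of 54 fold changes between days, 16 turned direction under at least 1 alternative, none of them called. With the first aliquots alone LIN28A was 1.24 from D7 to D9 and −1.18 from D9 to D11, SOX2 −0.26 and MYC −0.51 from D9 to D11, and KLF4 0.41 from D11 to D13. With the second aliquots alone KLF4 was −0.16 between D3 and D5 and 0.62 between D5 and D7, SOX2 −0.29 from D7 to D9 and MYC −0.032 from D11 to D13. Without the first aliquot of pool A of D9, SOX2 was −0.086 from D7 to D9, and 3 in place of 4 members were called for D11 to D15 against D3 to D7. Values near 0 turned for LIN28A from D7 to D9 (0.0072 with DESeq2 and with its size factors, 0.015 with no filter and with the compared pools alone) and MYC (−0.043 with no filter and −0.0070 with the compared pools alone from D9 to D11, −0.036 with the replicate block from D11 to D13, −0.015 with no filter from D0 to D15).

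Leaving out each pool, LIN28A ran from −1.36 to 0.011 from D5 to D7, −0.51 to 0.83 from D7 to D9, −0.43 to 1.61 from D11 to D13 and −0.37 to 1.67 from D13 to D15. KLF4 ran from −1.27 to 0.31, −0.49 to 1.04 and −0.89 to 0.61 over the intervals that end on D7, D9 and D13. SOX2 ran from −0.057 to 1.22 from D7 to D9, MYC from −0.36 to 0.31 from D9 to D11 and −0.68 to 0.51 from D11 to D13, and POU5F1 from −0.18 to 0.52 from D11 to D13 and −0.060 to 0.63 from D13 to D15. The cause was not tested. Between top and bottom groups of cells, 145 of 156 values kept direction and side of the threshold. Of the others, 7 were SOX2 by AES without 1 pool, 2 were LIN28A and SOX2 by AES without the first aliquot of pool A of D9 (1 member called by AES in place of 3), and 2 were POU5F1 by AES, uncalled throughout, at 0.022 with a pseudocount of 0.1 and from −0.59 to 0.035 leaving out each pool. Depth sets the shares: not thinned, 46 of 48 moved by more than the spread between pools.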
